A study of Mus musculus with 30 samples.

Results

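The genes described are 9 genes of the integrated stress response and of the unfolded protein response of the endoplasmic reticulum (ER), *Atf4*, *Ddit3*, *Chac1*, *Trib3*, *Asns*, *Ppp1r15a*, *Atf3*, *Hspa5* and *Xbp1*. They were taken by name from the 55487 genes of the deposited counts. Their mRNA was measured in 23 single mouse embryos from matings of *Dis3* heterozygous (het) mice. DIS3 is a ribonuclease of the RNA exosome, and its null allele lacks internal exons removed with CRISPR-Cas9. At embryonic day 2.5 (E2.5) there were 6 wild-type embryos with both intact alleles, 2 het embryos with 1 null allele and 4 homozygous null embryos. The later stage, E2.75, held 3 embryos without the null allele, 5 het and 3 null ones. All embryos came from hormonally stimulated het mothers, the study describes 2 knockout lines and the labels do not say which was used, and each library is 1 whole embryo, so less mRNA per cell and fewer cells cannot be told apart. The labels do not say which embryos shared a mother, and p-values measure the spread between these embryos.

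In the integrated stress response, several kinases sense amino acid shortage, double-stranded RNA, lack of heme or unfolded protein in the ER, and phosphorylate the translation factor eIF2. General translation then slows, while the mRNA of *Atf4* is translated more. The transcription factor ATF4 raises genes for amino acid supply and, with CHOP (the product of *Ddit3*), genes of longer stress. In the ER, the sensors IRE1 and ATF6 act beside the kinase PERK. IRE1 splices the mRNA of *Xbp1*, and the spliced form and cleaved ATF6 raise chaperones, of which the product of *Hspa5* (BiP) is the best known. Counts per gene measure neither the translation of *Atf4* nor the splicing of *Xbp1*.

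ATF4 with a C/EBP partner is known to bind a composite element, here searched as TGATGNAA, and cleaved ATF6 with NF-Y binds the ER stress element, here searched as CCAAT and CCACG with 9 bases between them. The cAMP response element was searched as TGACGTCA. All were searched on both strands in the 250 bases before the RefSeq start of each gene (GRCm38.p6, the build of the counts), and all 9 genes had an entry. The 5 matches are matches of letters only, as binding by these factors was not measured. Each is shown as 30 bases on the gene's strand, 5′ to 3′, with the matched letters in capitals.
*Atf3*, chr1:191183425-191183454, minus strand: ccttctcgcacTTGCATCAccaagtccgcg
*Chac1*, chr2:119351038-119351067, plus strand: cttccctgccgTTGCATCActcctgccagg
*Asns*, chr6:7693214-7693243, minus strand: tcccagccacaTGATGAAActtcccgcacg
*Ppp1r15a*, chr7:45526269-45526298, minus strand: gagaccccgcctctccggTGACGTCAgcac
*Hspa5*, chr2:34772020-34772049, plus strand: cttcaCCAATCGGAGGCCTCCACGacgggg
The C/EBP-ATF element began 110 bases before the start in *Atf3*, 193 in *Chac1* and 23 in *Asns*, and in *Atf3* and *Chac1* it lay on the opposite strand. It is in 3.53% of the 27025 promoters searched. The cAMP response element of *Ppp1r15a* (1.62% of promoters) began 12 bases before the start. The ER stress element of *Hspa5* (0.122% of promoters) began 65 bases before it. In *Asns* and *Hspa5* the element lies inside the first exon of the GENCODE vM21 annotation, which starts farther upstream than the RefSeq one. No match was found in these windows for *Atf4*, *Ddit3*, *Trib3* and *Xbp1*.

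Libraries held 1690192 to 14015980 counts on genes, with medians of 8644043 in wild-type, 8895879 in het and 4808323 in null embryos. *Dis3* lay at 0 to 21.5 CPM (counts scaled to the library total, with the TMM factor of edgeR) in null, 30.4 to 59.2 in het and 18.0 to 147 in wild-type embryos. The lowest wild-type value, 18.0 CPM in the embryo labelled as replicate 6 of E2.5, lay in the range of the null embryos. All 10 pre-implantation markers were detected in each genotype, with summed levels of at least 5821 CPM. The summed level of 10 cumulus or granulosa markers reached 18.9 CPM in null, 2.71 in het and 1.55 in wild-type embryos, those of the oviduct and blood lists stayed at or under 12.2 CPM, and 5 sperm genes at or under 3.66 CPM. Reads not wholly inside annotated exons were 32.3% to 43.9% in null, 21.2% to 27.9% in het and at most 33.4% in wild-type libraries. These are shares of the reads counted on genes, as ambiguous or as without a feature. The part of these shares, of depth and of the marker levels in the results below was not tested.

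*Atf4* and *Hspa5* were by far the most abundant of the 9 mRNAs, and *Atf3* was not detected in any embryo. Per kilobase of exon, the mean level over the 23 embryos was 108 CPM for *Atf4* and 56.3 for *Hspa5*. *Xbp1* (11.2 CPM per kilobase) and *Asns* (10.9) followed, at levels that did not differ beyond their spread (SD 7.15 and 6.87, n = 23). *Ppp1r15a* (5.38), *Trib3* (4.53) and *Ddit3* (4.36) formed a lower group, also within 1 SD of each other. *Chac1* lay at 0.593 CPM per kilobase. *Atf3* had 0 counts in all 23 libraries, where 0 allows up to 3 counts, or 0.194 to 1.54 CPM depending on the library.

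With the stages combined and libraries scaled by TMM, none of the stress genes was called between genotypes (scaling to the spike-in called 4 lower in null than in het embryos). Of the 7 genes that passed the filter on low counts, edgeR's quasi-likelihood test called 0 in null against het, 0 in null against wild-type and 0 in het against wild-type embryos. A call was an adjusted p under 0.1 with a log2 fold change beyond 1 in size. Of all 13415 genes tested, 5.73%, 5.25% and 0% were called in the same 3 comparisons. At an unadjusted p under 0.05, 0 of the 7 genes passed in each, and DESeq2 called 0 of the 8 that it tested. The groups did not overlap for 0 of the 7 genes in null against het (2.88% of all genes) and in null against wild-type (1.7% of all genes). *Atf3* and *Chac1* were not tested here. Both null comparisons share the null embryos, and both wild-type comparisons share the wild-type embryos. The median log2 fold change of the 7 genes was -0.24 in null against het, beside 0.02 for all genes tested, and -0.49 in null against wild-type, beside -0.02.

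**Figure D1:**
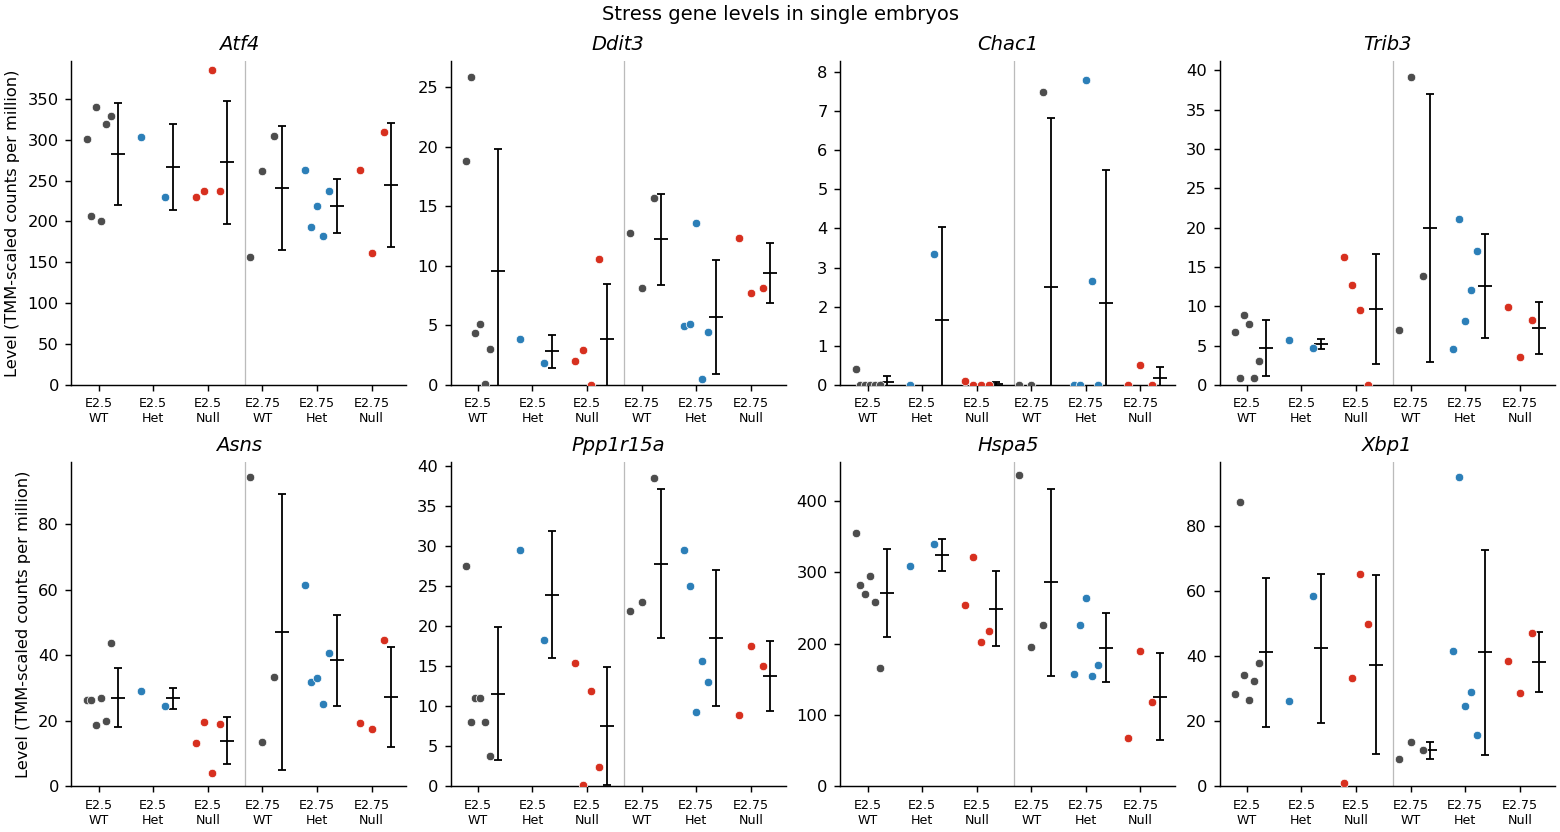
Level of 8 stress genes in each of the 23 embryos, in TMM-scaled CPM on a linear axis that starts at 0, by stage and genotype. Points are embryos, and the bar beside them is the mean with 1 SD (bars that would pass below 0 are cut there). *Atf3*, at 0 in every embryo, is left out. *Xbp1* lies between 8.25 and 13.6 in the 3 E2.75 wild-type embryos and between 28.7 and 47.1 in the 3 E2.75 null embryos.

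*Atf4* (ENSMUSG00000042406, chr15:80255184-80257541 of GRCm38, plus strand) encodes the central transcription factor of the response. The 9 wild-type embryos measured 300.2, 207, 340, 201, 319 and 329 CPM (E2.5), then 156, 262 and 304 (E2.75). The 7 het embryos measured 304 and 229 CPM (E2.5), then 263, 193, 219, 182 and 237 (E2.75). The 7 null embryos measured 229.9, 237, 385 and 237 CPM (E2.5), then 262, 161 and 309 (E2.75). The 3 genotypes covered nearly the same range, and the highest value belonged to a null embryo. The means were 269 ± 65.7 (SD, n = 9) in wild-type, 232 ± 41.6 (n = 7) in het and 260.2 ± 70.4 (n = 7) in null embryos. Null against het gave a log2 fold change of 0.16, with a 95% confidence interval from -0.26 to 0.59 (edgeR, adjusted p = 0.75). In null against wild-type it was -0.05 (-0.45 to 0.36, adjusted p = 0.962), so a change of 1.5-fold or more lies outside this interval on the TMM scale. *Atf4* was also steady among embryos of 1 genotype, with a residual SD of 0.36 on the log2 CPM scale. Of all genes tested, 98.0% had a larger residual SD, and of the 1338 genes within 2-fold of its level, 88.3%.

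*Ddit3* (ENSMUSG00000025408, chr10:127290774-127296288, plus strand) encodes CHOP, which drives the later, death-promoting arm of the response. Its levels were low and scattered, at 18.8, 25.8, 4.33, 5.12, 0.103 and 3.01 CPM in the E2.5 wild-type embryos and 12.8, 8.13 and 15.7 in the E2.75 ones. Among het embryos, those of E2.5 had 3.81 and 1.86 CPM and those of E2.75 had 4.92, 5.12, 13.6, 0.532 and 4.43. Among null embryos, the values were 1.98, 2.89, 0 and 10.6 CPM for E2.5 and 12.3, 7.69 and 8.17 for E2.75. All genotypes overlapped, and the E2.5 wild-type embryos alone ranged from 1 to 230 counts. The difference of null against het, 0.33 on the log2 scale, had an interval from -1.39 to 2.06 (adjusted p = 0.884), so that a 2-fold change in either direction would not have been detectable. It was -0.75 (-2.40 to 0.90, adjusted p = 0.761) in null against wild-type. The counting ignored strand, and *Ddit3* shares 68 exonic bases with *Mars* and 13 with *Gm4189* on the opposite strand, so reads there are of uncertain origin. A separate entry for an upstream reading frame of *Ddit3* had 0 counts in every library.

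The 4 effectors were low, and edgeR called 0 of them in the genotype comparisons on the TMM scale. *Asns* (ENSMUSG00000029752, chr6:7675169-7693254, minus strand), which makes asparagine, had the smallest p among the 7 genes in null against het. The null embryos of E2.5 had 13.1, 19.7, 3.97 and 18.8 CPM, and those of E2.75 had 19.2, 17.4 and 44.7. The het embryos of E2.5 had 29.1 and 24.6 CPM, and those of E2.75 had 61.4, 31.9, 32.9, 25.0 and 40.7. Of the 7 null embryos, 6 lay below every het embryo, and 1 null embryo at E2.75 lay among them. Wild-type embryos ranged from 13.4 to 94.5 CPM with a median of 26.4. Null against het gave -0.84 (-1.73 to 0.05) on the log2 scale (edgeR, unadjusted p = 0.0635, adjusted p = 0.322). It was -0.78 (-1.63 to 0.07) in null against wild-type (adjusted p = 0.397). *Ppp1r15a* (ENSMUSG00000040435, chr7:45522916-45526268, minus strand) encodes GADD34, which brings a phosphatase to eIF2 and ends the response. Its mean was 10.2 ± 6.69 CPM in null (n = 7) and 20.0 ± 8.07 in het embryos (n = 7), the wild-type embryos spanned 3.78 to 38.5 CPM, and there was a log2 fold change of -0.98 (-2.23 to 0.27) in null against het (adjusted p = 0.430).

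*Trib3* (ENSMUSG00000032715, chr2:152337422-152344032, minus strand) encodes a pseudokinase that restrains ATF4. Its means were 8.60 ± 5.43 CPM in null (n = 7), 10.5 ± 6.51 in het (n = 7) and 9.78 ± 11.8 in wild-type embryos (n = 9). The difference of null from het embryos, -0.27 on the log2 scale (-1.87 to 1.33, adjusted p = 0.901), became 0.32 with the stage as a covariate and 0.46 with a replicate block, so that its direction is not settled. *Chac1* (ENSMUSG00000027313, chr2:119351229-119354381, plus strand) degrades glutathione and is one of the most responsive targets of ATF4 and CHOP. It had counts in 7 of 23 embryos. There were 5 counts in 1 wild-type embryo at E2.5 and 74 in 1 at E2.75, 36, 94 and 15 counts in 3 het embryos, and 1 count each in 2 null embryos. At E2.75, where it passed the filter, its log2 fold change was -3.87 (-9.81 to 2.07) in null against het, with an adjusted p of 0.535 (edgeR).

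**Figure D2:**
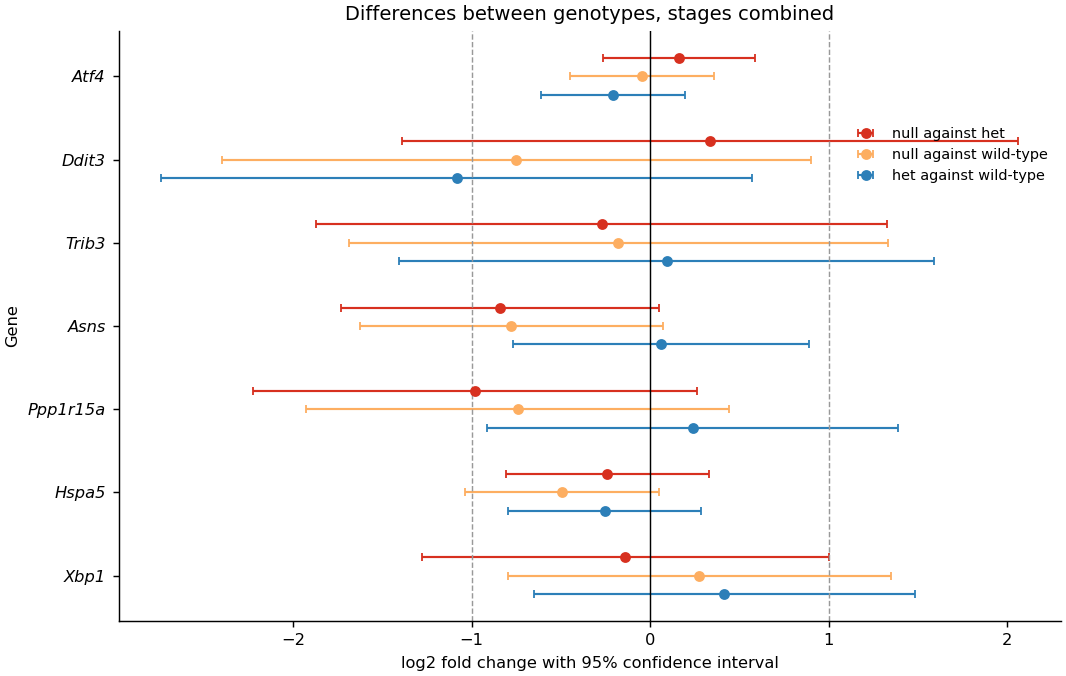
Log2 fold change of 7 stress genes in the 3 comparisons of genotypes with the stages combined, with its 95% confidence interval (bars), on the TMM scale. Dashed lines mark -1 and 1, the size a call needs. All 21 intervals include 0, and those of *Atf4* are the narrowest, from -0.61 at the lowest to 0.59 at the highest.

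Of the ER genes, *Hspa5* (ENSMUSG00000026864, chr2:34771970-34777547, plus strand) encodes the chaperone BiP and *Xbp1* (ENSMUSG00000020484, chr11:5520659-5525893, plus strand) the transcription factor of the IRE1 arm. With the stages combined *Hspa5* lay at 276 ± 82.1 CPM in wild-type (n = 9), 231 ± 75.3 in het (n = 7) and 196 ± 83.7 in null embryos (n = 7). Its log2 fold change was -0.24 (-0.81 to 0.33, adjusted p = 0.720) in null against het and -0.49 (-1.04 to 0.05, adjusted p = 0.4) in null against wild-type. *Xbp1* lay at 31.0 ± 23.7, 41.5 ± 27.3 and 37.6 ± 20.2 CPM in the same groups, with a log2 fold change of -0.14 (-1.28 to 1.00, adjusted p = 0.933) in null against het. Of all genes tested, 39.5% had a larger residual SD than *Xbp1*, and of the 3108 genes within 2-fold of its level, 9.94%.

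At E2.5 alone, edgeR called 0 of 7 genes in null against het (0.0126% of all genes called) and 0 in null against wild-type (1.82%), with 0 at an unadjusted p under 0.05 in either and 0 called by DESeq2. With 2 het embryos, the intervals at this stage were wide. *Asns* had -1.02 (-2.39 to 0.36) against het and -0.99 (-2.09 to 0.10) against wild-type embryos. *Atf4* had -0.04 (-0.73 to 0.64) and -0.09 (-0.60 to 0.43).

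At E2.75, null embryos had less *Hspa5* and more *Xbp1* mRNA than wild-type embryos, by differences that passed DESeq2's test and fell short of edgeR's. *Hspa5* lay at 436, 196 and 226 CPM in the 3 wild-type embryos and at 68.0, 190 and 118 CPM in the 3 null embryos. *Xbp1* lay at 8.25, 13.6 and 10.9 CPM in wild-type and at 38.4, 28.7 and 47.1 CPM in null embryos. In both genes every null embryo lay on 1 side of every wild-type embryo on the TMM scale. For *Hspa5* the nearest pair, 190 and 196 CPM, almost touched. *Ppp1r15a* did not overlap either, at 8.87 to 17.4 CPM in null and 21.8 to 38.5 CPM in wild-type embryos. These 3 of 8 genes stand beside 23.1% of all genes that did not overlap in this comparison of 3 against 3. With ERCC scaling *Hspa5* overlapped, at 267 CPM in null replicate 2 and 255 in wild-type replicate 2. On the log2 scale the difference was -1.24 (SE 0.38, 0.423-fold) for *Hspa5* (edgeR, adjusted p = 0.104; DESeq2, -1.19, adjusted p = 0.0559). For *Xbp1* it was 1.75 (SE 0.59, 3.36-fold) (edgeR, adjusted p = 0.135; DESeq2, 1.81, adjusted p = 0.0331). EdgeR thus called 0 of 8 genes, with 4.54% of all genes called. At an unadjusted p under 0.05, 2 of the 8 passed, beside 18.3% of all genes. DESeq2 called 2, with 12.9% of all genes called by DESeq2. Over the alternative fits *Hspa5* ranged from -1.66 to -0.83 (adjusted p from 0.00928 to 0.305) and *Xbp1* from 1.30 to 2.03 (adjusted p from 0.0331 to 0.309). Like the main fit, 12 of 17 alternatives did not call *Hspa5*, and 14 of 17 did not call *Xbp1*. EdgeR called *Hspa5* without E2.75 het replicate 3 or E2.75 null replicate 2, and *Xbp1* without E2.75 het replicate 2, 1 gene in each case. It called both with no filter on low counts and *Hspa5* with ERCC scaling. The E2.75 null libraries held 1914128, 1690192 and 7051002 counts with 43.9%, 42.9% and 41.1% of reads not wholly inside exons, and the wild-type ones 3283708, 8030848 and 8644043 counts with 33.4%, 28.8% and 23.5%.

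At E2.75 the het embryos, like the null embryos, lay above the wild-type embryos in *Xbp1*. They had 41.5, 94.9, 24.6, 28.9 and 15.7 CPM, all above the 3 wild-type embryos. *Xbp1* was 1 of 8 genes without overlap in this comparison, beside 7.1% of all genes. Null against het at this stage differed by -0.14 (-1.23 to 0.96), and edgeR called 0 of 8 genes in that comparison (4.82% of all genes), with 0 at an unadjusted p under 0.05 and 0 by DESeq2. In het against wild-type at E2.75, *Xbp1* was at 1.89 (SE 0.55, unadjusted p = 0.00384, adjusted p = 0.334 by edgeR). DESeq2 called it there, with an adjusted p of 0.0410, and called 0 of the other stress genes, with 2.14% of all genes called by DESeq2. EdgeR called 0 of 8 (0% of all genes). The 3 E2.75 wild-type embryos are shared by both comparisons with wild-type. *Hspa5* in het embryos, at 157, 226, 263, 154 and 170 CPM, overlapped both other genotypes, with -0.57 (-1.27 to 0.13) against wild-type and -0.67 (-1.40 to 0.06) for null against het.

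In wild-type embryos *Xbp1* was lower at E2.75 than at E2.5, by a difference that passed DESeq2's test and fell short of edgeR's. The 6 embryos of the earlier stage had 28.2, 87.3, 34.2, 26.6, 32.4 and 37.8 CPM, and every E2.75 value was below all of these. This was a log2 fold change of -1.90 (SE 0.75, 0.268-fold), with an adjusted p of 0.144 by edgeR and 0.0768 by DESeq2. Over the alternative fits it ranged from -2.09 to -0.94 (adjusted p from 0.0411 to 0.426). On the TMM scale *Xbp1* was 1 of 8 genes without overlap, beside 11.4% of all genes. With ERCC scaling the groups overlapped, at 12.6 CPM in E2.5 replicate 1 and 17.7 and 19.8 in E2.75 replicates 2 and 3. *Trib3* lay at 2.10 (SE 0.92), with an adjusted p of 0.194 by edgeR and 0.0802 by DESeq2, and *Chac1* at 4.78 (SE 2.05, adjusted p = 0.184), a value that rests on the 74 counts of 1 embryo. EdgeR called 0 of 8 genes (7.38% of all genes). At an unadjusted p under 0.05, 3 of the 8 passed, beside 20.1% of all genes. DESeq2 called 2, *Trib3* and *Xbp1*, with 11.9% of all genes called by DESeq2. EdgeR called 1 gene, *Chac1*, without E2.5 wild-type replicate 1 and 1 gene, *Xbp1*, without E2.5 null replicate 1. The 4 effectors, of which edgeR called 0 on the TMM scale, had a median log2 fold change of 1.68 beside 0.00 for all genes. With ERCC scaling edgeR called all 4 of them, *Chac1*, *Trib3*, *Asns* and *Ppp1r15a*. The spike-in share was 3.49% to 7.44% in the E2.5 and 2.53% to 3.70% in the E2.75 wild-type libraries. ERCC scaling thus places the E2.75 embryos higher in all genes than TMM does. The share of all genes called on that scale is not given for this comparison, so these calls cannot be set apart from such a shift. Besides *Chac1*, single E2.75 wild-type embryos were far above the rest in *Trib3* (39.2 CPM, the others 6.92 and 13.8) and *Asns* (94.5 CPM, the others 13.4 and 33.2). *Atf4* was at -0.23 (-0.78 to 0.33) and *Hspa5* at 0.07 (-0.55 to 0.69).

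Whether the effect of the null genotype differed between the stages was tested directly. Between stages, the difference of null against het was called for 0 of 8 genes (0% of all genes), with 0 at an unadjusted p under 0.05 and 0 by DESeq2. For null against wild-type it was called for 0 of 8 genes as well (0% of all genes, 0 by DESeq2). *Hspa5* passed there at an unadjusted p of 0.0225 (-1.08, SE 0.44, adjusted p = 0.376), and *Xbp1* had 1.94 (-0.16 to 4.03, adjusted p = 0.498). Of all genes, 11% had an unadjusted p under 0.05 in that comparison. The 4 null embryos of E2.5 had 0.936, 33.1, 65.3 and 49.8 CPM of *Xbp1*, and 254, 321, 202 and 218 of *Hspa5*.

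The amount of ERCC spike-in was set per embryo, so scaling to it compares mRNA per embryo rather than its share. On this scale the median of all genes was -1.08 on the log2 scale in null against het, -0.37 in null against wild-type and 0.71 in het against wild-type. In null against het, 4 of the 7 genes were then called, all lower, with 35.6% of all genes called. *Atf4* was at -1.02 (SE 0.32, adjusted p = 0.0207), *Asns* at -1.90 (SE 0.59, adjusted p = 0.0209), *Ppp1r15a* at -1.91 (SE 0.78, adjusted p = 0.0621) and *Hspa5* at -1.37 (SE 0.34, adjusted p = 0.00600). Relative to the median of all genes these values were 0.06, -0.82, -0.84 and -0.30. The directions of *Atf4* and *Ddit3* in null against het thus turned between the scales, while those of *Asns*, *Ppp1r15a* and *Hspa5* were negative on both. In null against wild-type, 0 of the 7 genes were called on the spike-in scale. These fits mix the stages unequally, as 5 of 7 het but 3 of 7 null embryos were of E2.75. On this scale *Atf4* had a mean of 205 CPM in E2.5 and 361 in E2.75 wild-type embryos. Within stages, null against het was called for *Atf4*, *Asns* and *Hspa5* at E2.5 and for *Hspa5* at E2.75. The 2 het embryos of E2.5 had 566 and 181 CPM of *Atf4*.

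The other genes of these pathways were described by 10 lists of 128 genes, of which 113 were tested. In null against het, 0 rose and 6 fell (5.31% of the 113), and in null against wild-type, 1 rose and 1 fell (1.77%), where 5.73% and 5.25% of all genes were called. At an unadjusted p under 0.05, 38 (33.6%) and 25 (22.1%) of the 113 passed, beside 17.3% and 15.1% of all genes. DESeq2 called 13 and 7 of the other stress genes, where it called 1784 and 1663 of all genes. Leaving out 1 embryo at a time gave 4 to 11 calls against het, the most without E2.5 het replicate 2 and 10 without E2.75 null replicate 2, and 1 to 5 calls against wild-type, the most without E2.5 null replicate 1 or E2.75 null replicate 2. In het against wild-type 0 were called by edgeR and by DESeq2, with 10 (8.85%) at an unadjusted p under 0.05, beside 6.96% of all genes. The members that fell against het were *Sars* (-1.18, SE 0.30, adjusted p = 0.0218), a tRNA synthetase, *Sel1l* (-1.98, SE 0.67, adjusted p = 0.0996), which serves the degradation of misfolded ER proteins, and the heat shock cochaperones *Hsph1* (-1.23, SE 0.31) and *Bag3* (-1.41, SE 0.40). The others were *Klf6* (-2.73, SE 0.83), an immediate early transcription factor, and *Gsr* (-1.11, SE 0.37), which reduces glutathione. *Sel1l* fell also against wild-type embryos (-2.05, SE 0.65, adjusted p = 0.0795). The calls of *Sel1l* and *Gsr* against het held in 10 of 31 alternative fits each, and that of *Sel1l* against wild-type in 20 of 31. The call of *Sars* held in 30 of 31 and was lost with stage as a covariate, where its log2 fold change was -0.985.

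*Gdf15*, a secreted cytokine that ATF4, CHOP and p53 are known to raise, was the single gene of these lists called higher in null than in wild-type embryos with the stages combined. It had 13, 0, 0 and 43 counts in null embryos at E2.5 and 9, 6 and 66 counts at E2.75. Of the 9 wild-type embryos, 6 had 0 counts and the others 6, 1 and 1, and of the 7 het embryos 2 had counts (10 and 14). The level was 4.02 ± 4.16 CPM in null (n = 7) and 0.0781 ± 0.161 CPM in wild-type embryos (n = 9), and the log2 fold change 5.28 (SE 1.44, edgeR, adjusted p = 0.0345). The call held in 29 of the 30 alternative fits that tested the gene, all but the replicate block (highest adjusted p = 0.186), and with only the 2 genotypes in the fit *Gdf15* did not pass the filter. In null against het it was 2.82 (adjusted p = 0.315).

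By list, the genes of ER associated degradation had a median of -0.80 in null against het (9 of 12 lower), the cytosolic heat shock genes -0.82 and the 7 tested NRF2 genes -1.20, with 7 of 7 lower, beside 0.02 for all genes. Of the 16 ER chaperones and folding enzymes, 0 were called and the median was -0.46. The most abundant were *Canx* (-0.53, adjusted p = 0.212) and *Pdia3* (0.09, adjusted p = 0.905). The ER stress sensors (0 of 7 called) had a median of 0.25, with *Mbtps1* at -0.55 and *Creb3* at 0.25. The kinases and subunits of eIF2 and eIF2B (0 of 12 called) had a median of 0.00, with *Eif2s2* at 0.66 and *Eif2b1* at 0.52. The amino acid synthesis and transport targets of ATF4 (0 of 14 called) had a median of -0.37, with *Psat1* at -0.26 and *Phgdh* at -1.31 (adjusted p = 0.152). The tRNA synthetases had a median of -0.61, with 1 of 12 higher, the other ATF4 or CHOP targets one of 0.64, with 8 of 11 higher, and the immediate early genes one of -0.08, with 5 of 11 higher. The combined values mix the stages unequally, as 5 of 7 het but 3 of 7 null embryos were of E2.75. Within stages the synthetase median was -0.50 at E2.5 and -0.32 at E2.75. That of the other ATF4 or CHOP targets was 0.52 and -0.04. In null against wild-type, stages combined, these targets had a median of -0.07 (5 of 11 higher) and the immediate early genes 0.44 (7 of 11 higher). There the medians of the ER associated degradation, heat shock, NRF2 and synthetase lists were -0.72, -0.60, -0.75 and -0.47.

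**Figure D3:**
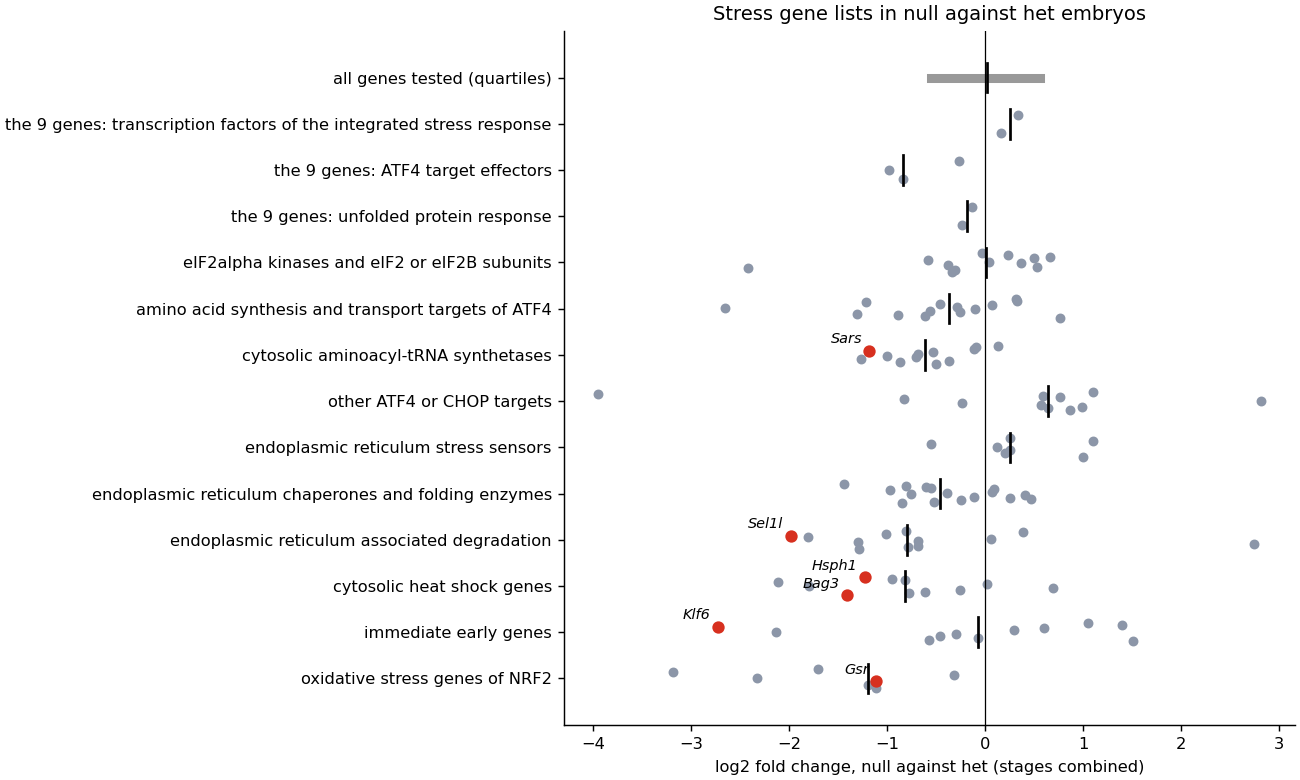
Log2 fold change of each tested stress gene in null against het embryos, stages combined, by list. Grey points are genes not called, red points those called, black ticks the median of a list, and the grey bar the quartiles of all 13415 genes tested (-0.55 to 0.56). The 6 red points all lie to the left of -1.

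Of the 12 cytosolic tRNA synthetases, 5 rose from E2.5 to E2.75 in wild-type embryos (*Cars*, *Gars*, *Aars*, *Iars* and *Mars*, which overlaps *Ddit3*), all 12 were higher and the median was 0.86. Of the 18 amino acid genes 3 rose, *Slc3a2*, *Shmt2* and *Phgdh* (median 1.06), beside 7.38% of all genes called in either direction. These genes and those that follow were named after their values were seen. *Iars* rose by 1.92 (SE 0.33, adjusted p = 0.00157) and *Phgdh*, the first enzyme of serine synthesis, by 2.03 (SE 0.42, adjusted p = 0.00535). In null against wild-type embryos at E2.75 the called genes of these lists were lower in null embryos, *Phgdh* at -1.85 (SE 0.33, adjusted p = 0.0130), *Shmt2*, a mitochondrial serine enzyme, at -2.39 (SE 0.67, adjusted p = 0.0802) and *Iars* at -2.20 (SE 0.27, adjusted p = 0.00243). The 3 wild-type embryos of E2.75 enter both comparisons. In null against het at E2.75, which does not use them, *Phgdh* was at -1.50 (SE 0.30, adjusted p = 0.0186), *Shmt2* at -2.44 (SE 0.64, adjusted p = 0.0547) and *Iars* at -1.35 (SE 0.25, adjusted p = 0.0112). *Asns*, of the same arm, was at -0.53 (-1.70 to 0.65) there.

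Pairs of the stress genes were weakly related from embryo to embryo. Over the 23 embryos, the Pearson correlation of log2 CPM between pairs of the 7 tested genes ranged from -0.37 (*Trib3* and *Xbp1*) to 0.49 (*Ddit3* and *Asns*), and it was -0.30 for *Atf4* and *Ddit3*. The embryos share stage, genotype and depth, so these are descriptions. The genes most like *Atf4* were *Cdk2ap1* (0.73), *Gm6394*, *Klhl3*, *Gm6091* and *Zfpl1* (0.65). Those most like *Ddit3* were *Ndc1* (0.72), *Trappc9*, *Hdgfl3*, *Zfp639* and *Gpr85* (0.69), and those most like *Hspa5* were *BC002059* (0.82), *Opa1*, *Tax1bp1* and *Zfp518a* (0.79). None of the 9 genes was among them.

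The deposited peaks of the transcription factor POU6F1 come from embryonic stem cells transfected with *Pou6f1-mCherry*, not from embryos. The study derived its stem cells from blastocysts homozygous for a floxed *Dis3* allele. Peaks were called in each of 2 replicates against IgG and against an mCherry-only control. The labels give 1 IgG and 1 mCherry-only ChIP library, so the 4 lists are not 4 separate tests. Which list belongs to which control is taken from the study's supplement, since the lists do not state it. Of the 9 genes, 7 had a peak within 1 kb of a start of the gene in both replicates against at least 1 control, where 65.4% of the genes tested in the embryos did. *Asns* and *Hspa5* had peaks in replicate 1 only. *Ddit3*, *Atf3* and *Trib3* had a peak in both replicates against both controls, as did 23.8% of the genes tested. The strongest was that of *Ddit3*, at chr10:127290277-127290825, with a fold enrichment of 35.3 over IgG and 28.4 over mCherry in replicate 1, and 10.5 and 7.50 in replicate 2. *Atf3* had 20.9 and 12.3 in replicate 1 and 9.66 and 4.42 in replicate 2, although its mRNA was at 0 counts in the embryos. *Trib3* had 14.1 and 10.6, then 3.94 and 3.01. For these 3 genes, the 150 bases before the farther upstream of the RefSeq and GENCODE starts are given on the gene's strand (sequence from RefSeq, GRCm38.p6). Each overlaps all 4 peaks of its gene at least in part, although the peak summits of *Ddit3* and *Trib3* lie outside it. The bases are in lower case, with the C/EBP-ATF element of *Atf3* in capitals.
*Ddit3*, chr10:127290624-127290773, plus strand: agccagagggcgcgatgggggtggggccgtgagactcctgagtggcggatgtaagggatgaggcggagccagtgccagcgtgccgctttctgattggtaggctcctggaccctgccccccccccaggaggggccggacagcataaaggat
*Atf3*, chr1:191183341-191183490, minus strand: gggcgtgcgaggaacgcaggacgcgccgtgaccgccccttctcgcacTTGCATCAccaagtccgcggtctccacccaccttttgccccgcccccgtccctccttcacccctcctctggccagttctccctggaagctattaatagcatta
*Trib3*, chr2:152344061-152344210, minus strand: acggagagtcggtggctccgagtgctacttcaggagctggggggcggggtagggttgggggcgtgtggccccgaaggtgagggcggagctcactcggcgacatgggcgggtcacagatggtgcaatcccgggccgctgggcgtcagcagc

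**Figure D4:**
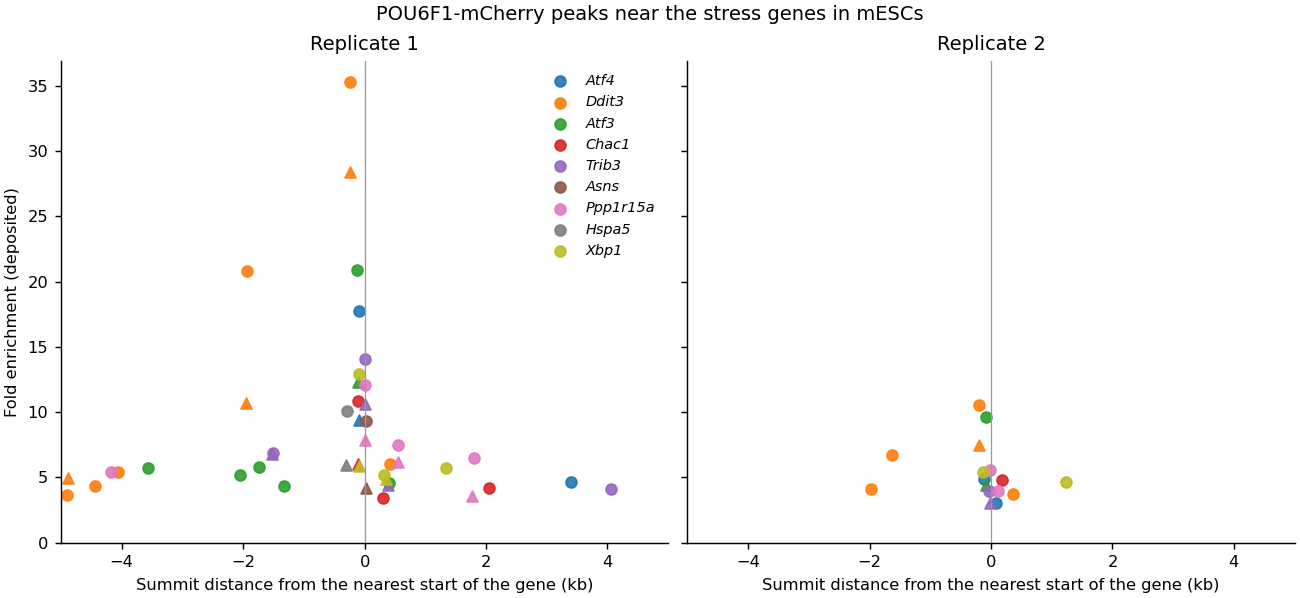
Fold enrichment of the deposited POU6F1-mCherry peaks (linear axis from 0) against the distance of their summit from the nearest start of the gene in kilobases, for the 9 stress genes in each replicate. Circles are peaks called against IgG and triangles peaks called against the mCherry control, with 1 colour per gene. The highest points in both panels belong to *Ddit3*, at 35.3 in replicate 1 and 10.5 in replicate 2.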

How the data were processed

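For the RNA-seq, the authors used cutadapt 3.4 for trimming and STAR 2.7.8a for alignment (GRCm38), and deposited whole-number counts per gene from HTSeq 0.11.4, without regard to strand and leaving out reads that reach beyond annotated exons. For the ChIP-seq, they aligned reads with Bowtie2 2.4.4 and called peaks with MACS2 2.2.7.1. The deposited peak lists hold a score, the enrichment ratio (fold over control) and -log10 p and q values, with no read depth. Here, 92 spike-ins and 5 summary lines of each count file stayed out of library sizes and tests.

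The test was that of edgeR 4.0.16 (R 4.3.3; TMM, filterByExpr, quasi-likelihood test, Benjamini-Hochberg adjustment over all genes tested), with the stages merged by genotype, each stage alone, and 1 mean per genotype and stage for the differences between stages. DESeq2 1.42.0 was an alternative. The SE is the log2 fold change over the root of F. CPM are TMM-scaled. Peaks were matched to starts of GENCODE vM21, and promoter sequences come from RefSeq on GRCm38.p6. The fits were tested on simulated data. Reads carry no molecular identifiers, so limits cover counting error only. The 38 pairs of embryos of the same group differed by more than sampling noise. *Ddit3* has 2 entries, and the longer was used.

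The 9 genes and the lists were chosen with earlier results of these data known. Named are the 9 genes, *Dis3*, the genes of each other list called with the stages combined (where none, the 2 most abundant), and the 5 genes most correlated with *Atf4*, *Ddit3* and *Hspa5*, of which 1 is not reported here. Het against wild-type at E2.75 and the difference of null against wild-type between stages were added after the values were seen. Alternatives were ERCC scaling, no filter, DESeq2, a replicate block, stage as a covariate, only the 2 genotypes compared, and each embryo left out.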

Additional observations from a re-analysis of the deposited data

Results flagged for a closer look

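In 14 of the 48 sets of levels with 4 to 10 embryos, 1 embryo stood apart from the rest of its group by more than Dixon's 95% limit. For normal values and separate sets, chance alone passes it in about 1 of 20. Some sets here hold mostly 0 and the sets share embryos, so the 14 cannot be compared with that rate. Of the 14, 5 concern *Chac1*, which had counts in few embryos. It stood out at 7.80 CPM in E2.75 het replicate 3, 7.50 CPM in E2.75 wild-type replicate 3, and, on 1 to 5 counts, at 0.513 CPM in E2.75 null replicate 2, 0.104 CPM in E2.5 null replicate 1 and 0.408 CPM in E2.5 wild-type replicate 1. The same het embryo had the highest *Ddit3* of its genotype, 13.6 CPM. *Atf4* was at 385 CPM in E2.5 null replicate 3 and within 230 to 237 CPM in the other 3 null embryos of that stage.

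*Asns* stood out in 3 embryos, at 94.5 CPM in E2.75 wild-type replicate 1, 43.9 CPM in E2.5 wild-type replicate 6 and 44.7 CPM in E2.75 null replicate 3. *Trib3* was at 39.2 CPM in E2.75 wild-type replicate 2 and *Ppp1r15a* at 27.5 CPM in E2.5 wild-type replicate 1. *Xbp1*, at 87.3 CPM in E2.5 wild-type replicate 2, stood apart among the wild-type embryos of its stage and among all wild-type embryos. The cause of these values was not tested.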

How the results depend on the processing

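Of 775 log2 fold changes of the stress genes under alternatives, 728 kept their direction and call, and 31 turned, 1 of these with a call. Of 329 counts, 288 stayed within 1.5 times. ERCC scaling called 4 of the 9 genes in null against het (3 at E2.5, 1 at E2.75), 1 in null against wild-type at E2.75, 4 between stages in wild-type, and 63 and 9 other stress genes against het and wild-type. With the stages combined, it called 35.6% of all genes in null against het and 5.86% in null against wild-type. Its shares for single stages and between stages are not given. It turned *Atf4* (-1.02) and *Ddit3* (-0.65) in null against het and *Atf4* (0.58) and *Hspa5* (0.43) in het against wild-type. With no filter, 14 and 10 other stress genes were called, 2 of the 9 genes in null against wild-type and 1 in het against wild-type at E2.75, and 1 between stages. DESeq2 called 13 and 7, then 2, 1 and 2. Without both shallow E2.75 null libraries, a choice made after seeing the data, 12 and 4 other genes were called, and *Ddit3* was at -0.11 in null against het. Stage as a covariate called 8 against wild-type and moved *Trib3* to 0.32, 0.17 and -0.15 (null against het, null against wild-type, het against wild-type) and *Asns* to -0.19 in the last. With only the 2 genotypes compared in the fit, 0 other genes were called against wild-type.

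Same-numbered embryos did not pair: of 17 pairs, 2 had a correlation of their deviations over 0.1 (-0.26 to 0.23). With the replicate number as a block, 4 other genes were called against wild-type, *Trib3* was at 0.46 (null against het) and -0.68 (het against wild-type), *Atf4* at 0.034 (null against wild-type) and 0.018 (het against wild-type) and *Asns* at -0.0274 (het against wild-type). The block could not be fitted between stages. Leaving out 1 embryo at a time gave 4 to 11 other genes against het, 1 to 5 against wild-type, and 0 to 1 of the 9 genes in null against wild-type at E2.75 and between stages. It moved *Atf4* from -0.17 to 0.039 and *Trib3* from -0.42 to 0.50 in null against wild-type, *Trib3* from -0.17 to 0.77 and *Asns* from -0.13 to 0.43 in het against wild-type, *Xbp1* from -0.33 to 0.20 in null against het and *Hspa5* from -0.36 to 0.28 between stages. Peaks at -log10 q of at least 10 left 2 of the 9 genes, and both controls 3. The cause of these shifts was not tested. Low counts limited *Chac1*, *Ddit3* and *Trib3*, and depth was lowest in 2 E2.75 null libraries.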
